A study of Mus musculus with 16 samples.

Results

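The 10 genes described here are the Toll-like receptors Tlr1, Tlr2, Tlr3, Tlr4, Tlr7, Tlr9 and Tlr13, the lipopolysaccharide co-receptors Cd14 and Ly96, and the adaptor Myd88. They were taken by symbol from the 23284 gene symbols of a count table of mouse lumbar spinal cord, the level of the cord that holds the hindlimb motor neurons. All 10 had a row, and all 10 were among the 15426 genes with enough counts to test. The mice were 150 days old and fell into 4 groups of 4 animals. The groups were Atg7 cWT (cWT), Atg7 cKO (cKO), Atg7 cWT with SOD1G93A (cWT_SOD1) and Atg7 cKO with SOD1G93A (cKO_SOD1). Atg7 encodes an enzyme that autophagosome formation requires, cKO is read as conditional knockout and cWT as its wild-type counterpart, and the title of the series places the loss of autophagy in motor neurons. The driver of the knockout is not given in the sources used here. SOD1G93A is a mutant human SOD1 transgene that causes progressive motor neuron disease in mice, and it serves as a model of amyotrophic lateral sclerosis. The comparisons therefore ask how the 10 genes stood in the cord with the transgene, and whether the Atg7 genotype of the animal moved them with it or without it.

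Toll-like receptors are membrane proteins that bind molecules of microbes and of damaged cells through a leucine-rich repeat domain and signal through a cytoplasmic TIR domain. Tlr1, Tlr2 and Tlr4 act at the cell surface, and Tlr3, Tlr7, Tlr9 and Tlr13 bind nucleic acids inside endosomes. All of these receptors except Tlr3 signal through Myd88, whereas Tlr3 uses the adaptor Ticam1 (TRIF) and Tlr4 uses both. The pathways end in NF-kappa-B, in AP-1 and in interferon regulatory factors, and so in cytokines, chemokines and interferon. In the central nervous system microglia, the resident macrophages, are the main cells that carry these receptors, and astrocytes are known to carry Tlr3 as well.

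Levels below are CPM (counts scaled to library size with TMM factors), with the 4 libraries of a group given in the order of their replicate numbers, and library totals ran from 14989026 to 20892530. Differences are log2 fold changes with an approximate standard error (SE) from 1 edgeR quasi-likelihood fit over all 16 libraries, and p-values are adjusted over the 15426 genes by the Benjamini-Hochberg method. A gene is said to be called where its adjusted p is under 0.05. Atg7 itself stood at 31.4 ± 2.51 CPM in cWT, 28 ± 1.06 in cKO, 24.1 ± 4.26 in cWT_SOD1 and 27.2 ± 4.5 in cKO_SOD1 (mean ± SD, n = 4). Without the transgene the 4 cWT libraries, at 29.7 to 35.1 CPM, lay above the 4 cKO libraries, at 26.4 to 28.8 CPM, and with it the genotypes overlapped, at 20.8 to 30.3 and 20.4 to 29.6 CPM. Counts of the whole gene in the whole cord cannot check a deletion in 1 cell type. Markers of astrocytes (Gfap, Aqp4, Aldh1l1), oligodendrocytes (Mbp, Mog) and neurons (Rbfox3, Snap25, Syt1) were present in every group. The 4 animals of a group are biological replicates, per the design text. The values are relative to the other RNA of a whole cord, in which more cells of a type and more RNA per cell cannot be told apart.

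All 10 genes rose with the transgene in cWT cords, by 1.90-fold for Tlr3 up to 14.0-fold for Tlr1, and for each of them the 4 cWT_SOD1 libraries lay above the 4 cWT libraries. In cords with the transgene all 10 were lower in cKO than in cWT, again with no overlap between the groups. They stood 1.64-fold lower for Tlr3 and 5.08-fold lower for Tlr7 at the ends of the range. Between cKO and cWT without the transgene none was called. The transgene still raised 9 of the 10 in cKO cords, by 1.29-fold to 2.48-fold, and Ly96 was the exception. With 1 library left out in turn, 4 to 8 of the 10 were called there, and only Tlr2, Tlr4, Tlr7 and Tlr13 were called each time.

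**Figure D1:**
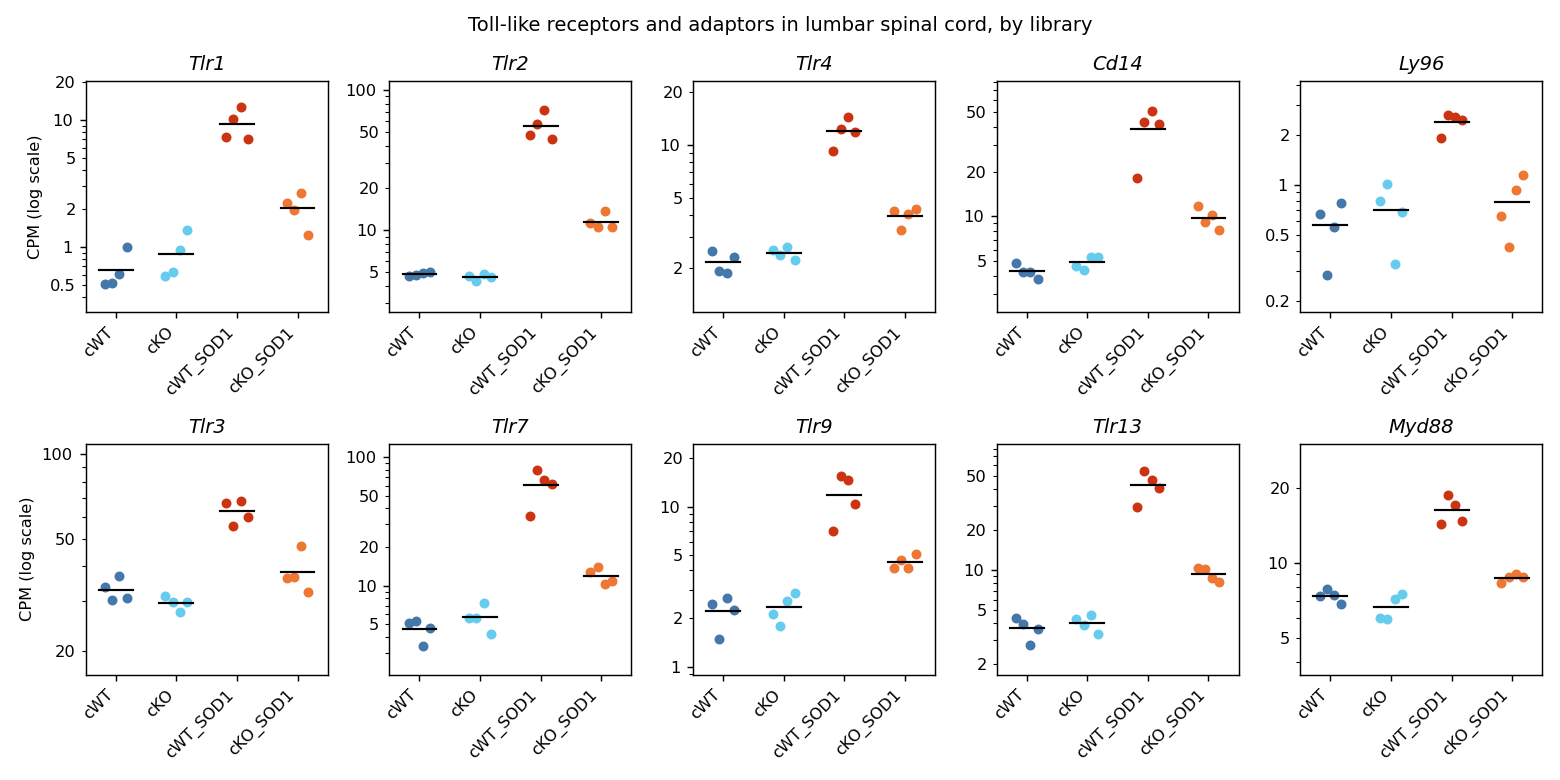
Normalised levels (CPM) of the 10 genes in the 16 libraries, 1 panel per gene with its own logarithmic axis, by group. Each point is 1 library and each line the mean of 4 libraries. In every panel the cWT_SOD1 points lie above the points of the other 3 groups.

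In cWT, 33.2% of the 15426 genes were called higher with the transgene and 33.1% lower, and 27.6% were higher with no overlap between the groups. All 10 of the genes described fell in the first and the last of these classes, and their median log2 fold change was 2.81 beside 0.00880 over all genes. In cKO the transgene raised 4.8% of all genes and lowered 2.48%, and 9.91% were higher without overlap, beside 9 of 10 called higher, 8 of 10 higher without overlap and a median of 0.96. The genotype without the transgene gave a call for 0.0259% of all genes in either direction. With the transgene, 29.1% of all genes were called higher in cKO than in cWT and 29.1% lower, and 24.1% were lower without overlap, beside 10 of 10 called lower, 10 of 10 lower without overlap and a median of −1.78. The interaction, which is the transgene effect in cKO minus that in cWT, was called positive for 23.2% of all genes and negative for 21.8%, beside 10 of 10 negative and a median of −2.02. These medians and counts describe the 10 genes and carry no test of them as a set. The transgene effect in cWT and the genotype difference with the transgene share the cWT_SOD1 libraries, so their values are given side by side and not as independent of each other.

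**Figure D2:**
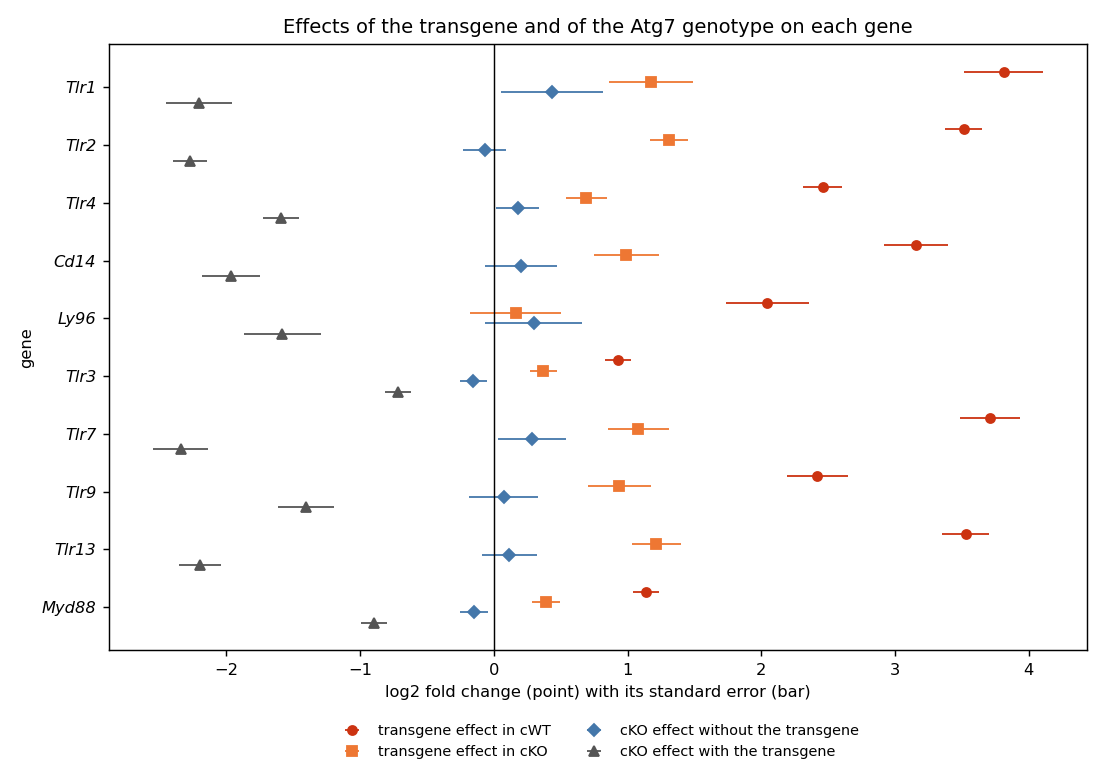
Log2 fold changes of the 10 genes in 4 comparisons, with their approximate standard errors as bars (4 libraries per group). The transgene effect in cWT lies from 0.93 to 3.81, that in cKO from 0.16 to 1.31, the genotype difference without the transgene around 0, and the genotype difference with it from −2.34 to −0.71.

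The promoters of 4 of the genes are printed because Tlr2 and Tlr13 rose strongly with the transgene in cWT, 11.4-fold and 11.5-fold, while Tlr3 and Myd88 had the smallest rises. Tlr1 rose more, 14.0-fold, and its 2 windows are not printed, so the printed genes are not the top of a ranking. They are RefSeq sequences of GRCm38.p6, 5′ to 3′ on the strand of the gene, from 250 bases before the annotated start to 50 bases after it. Capitals mark matches to 4 motifs searched on both strands. These were GGGANNNNCC for NF-kappa-B, GAAANNGAAA for interferon regulatory factors, TGANTCA for AP-1 and GAGGAA for the core bound by PU.1, a myeloid transcription factor. No match shown overlaps one to another motif. The windows are chr3:83841559-83841858 for Tlr2 (minus strand), chrX:106143025-106143324 for Tlr13 (plus strand), chr8:45410331-45410630 for Tlr3 (minus strand) and chr9:119339969-119340268 for Myd88 (minus strand).
Tlr2: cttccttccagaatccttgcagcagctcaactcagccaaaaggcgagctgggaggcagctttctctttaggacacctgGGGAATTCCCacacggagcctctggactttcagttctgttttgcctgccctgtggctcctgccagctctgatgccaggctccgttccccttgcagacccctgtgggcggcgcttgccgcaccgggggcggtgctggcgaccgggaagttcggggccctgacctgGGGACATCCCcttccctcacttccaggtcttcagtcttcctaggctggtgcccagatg
Tlr13: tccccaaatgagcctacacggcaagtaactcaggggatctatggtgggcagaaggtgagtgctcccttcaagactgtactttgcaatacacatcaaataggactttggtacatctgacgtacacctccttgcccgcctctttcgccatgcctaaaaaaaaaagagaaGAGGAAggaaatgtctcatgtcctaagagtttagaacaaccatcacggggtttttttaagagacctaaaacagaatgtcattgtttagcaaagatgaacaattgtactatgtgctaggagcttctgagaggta
Tlr3: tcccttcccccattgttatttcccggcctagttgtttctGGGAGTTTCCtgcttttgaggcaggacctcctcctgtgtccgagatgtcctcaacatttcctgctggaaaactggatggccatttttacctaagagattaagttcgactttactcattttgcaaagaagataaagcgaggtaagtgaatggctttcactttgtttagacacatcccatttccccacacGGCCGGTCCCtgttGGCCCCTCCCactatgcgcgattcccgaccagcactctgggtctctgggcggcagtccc
Myd88: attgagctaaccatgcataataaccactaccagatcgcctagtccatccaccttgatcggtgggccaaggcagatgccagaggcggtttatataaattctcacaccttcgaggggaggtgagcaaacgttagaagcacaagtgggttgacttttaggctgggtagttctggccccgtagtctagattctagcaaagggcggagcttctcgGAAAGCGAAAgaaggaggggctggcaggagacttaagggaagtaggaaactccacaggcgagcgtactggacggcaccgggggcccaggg
The Tlr2 window held 2 NF-kappa-B matches, GGGAATTCCC beginning at position −172 and GGGACATCCC at −8, counted from the annotated start. The Tlr3 window held 3, at −211, −23 and −9, and the Myd88 window held 1 interferon-type match, GAAAGCGAAA, at −40. The Tlr13 window held 1 GAGGAA, at −83. Of the 32851 windows of the same length in the table, 20.7% held the NF-kappa-B motif, 3.44% the interferon motif, 7.81% the AP-1 motif and 28.3% GAGGAA on either strand. The matches are descriptions of letters, and NF-kappa-B matches stood both in the strongly raised Tlr2 and in the weakly raised Tlr3. Windows were found for 6 of the 10 genes (7 windows, since Tlr1 had 2), and of those not printed Tlr9 held 2 GAGGAA matches and 1 TGACTCA, and 1 of the Tlr1 windows held 1 GAGGAA.

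Tlr1 and Tlr2 pair on the cell surface to bind bacterial lipoproteins. Tlr2 (mm9 chromosome 3, 83640194 to 83645530) measured 4.71, 4.80, 4.94 and 5.04 CPM in cWT and 4.72, 4.35, 4.88 and 4.63 CPM in cKO. With the transgene it measured 47.9, 57.5, 72.4 and 44.8 CPM in cWT_SOD1 and 11.3, 10.5, 13.8 and 10.4 CPM in cKO_SOD1. The 8 libraries without the transgene thus spanned less than 1 CPM, the cKO_SOD1 libraries stood above all of them, and the cWT_SOD1 libraries stood well above the cKO_SOD1 libraries. The log2 fold change of Tlr2 with the transgene was 3.51 (SE 0.14, adjusted p = 4.43e-12) in cWT and 1.31 (SE 0.15, adjusted p = 2.45e-05) in cKO, and the genotype difference with the transgene was −2.27 (SE 0.13, adjusted p = 1.22e-09). Without the transgene that difference was −0.069 (SE 0.16, adjusted p = 0.9995).

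Tlr1 (mm9 chromosome 5, 65316073 to 65323938) was the scarcest of the 10 per length in cWT, at 0.268 ± 0.0836 FPKM (deposited values scaled for transcript length and depth, mean ± SD, n = 4), with 48 reads over the 4 libraries. It measured 0.512, 0.514, 0.611 and 0.997 CPM in cWT and 0.584, 0.637, 0.942 and 1.37 CPM in cKO, and those groups overlapped. In cWT_SOD1 it measured 7.38, 10.1, 12.6 and 7.10 CPM and in cKO_SOD1 2.22, 1.94, 2.66 and 1.24 CPM. The lowest cKO_SOD1 library lay below the highest cKO library, so the transgene effect in cKO, 1.18 (SE 0.31, adjusted p = 0.0297), came with overlapping groups. In cWT the effect was 3.81 (SE 0.29, adjusted p = 6.10e-09), the largest among the 10, and with the transgene the genotypes differed by −2.2 (SE 0.25, adjusted p = 1.0e-06). The size of both transgene effects on Tlr1, in cWT and in cKO, rests on few reads without the transgene.

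Tlr4 binds lipopolysaccharide together with Ly96 (MD-2), which holds the lipid, and Cd14, which hands it over. Tlr4 (mm9 chromosome 4, 66488845 to 66503830) measured 2.51, 1.94, 1.89 and 2.33 CPM in cWT, 2.55, 2.39, 2.66 and 2.24 in cKO, 9.23, 12.3, 14.4 and 11.9 in cWT_SOD1 and 4.22, 3.30, 4.05 and 4.33 in cKO_SOD1. The cKO_SOD1 libraries lay above both groups without the transgene and below every cWT_SOD1 library. The transgene effect on Tlr4 was 2.46 (SE 0.15, adjusted p = 2.87e-10) in cWT and 0.69 (SE 0.15, adjusted p = 0.00787) in cKO, and the genotype difference with the transgene was −1.59 (SE 0.13, adjusted p = 6.47e-08).

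Cd14 (mm9 chromosome 18, 36884721 to 36886308) had the widest relative spread of the 10 among the cWT_SOD1 libraries. It measured 4.86, 4.22, 4.22 and 3.82 CPM in cWT, 4.67, 4.35, 5.32 and 5.36 in cKO, 18.1, 43.2, 50.6 and 41.5 in cWT_SOD1 and 11.8, 9.22, 10.2 and 8.06 in cKO_SOD1. Replicate 1 of cWT_SOD1 lay far below the other 3 of its group but above all cKO_SOD1 libraries. The effect of the transgene on Cd14 was 3.16 (SE 0.24, adjusted p = 5.14e-09) in cWT and 0.99 (SE 0.25, adjusted p = 0.0186) in cKO, and the genotypes differed by −1.97 (SE 0.22, adjusted p = 8.70e-07) with the transgene. Per length, Cd14 moved from the third place among the 10 in cWT, at 3.16 ± 0.390 FPKM, to the first in cWT_SOD1, at 29.2 ± 10.5 FPKM.

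Ly96 (mm9 chromosome 1, 16678537 to 16699686) had the fewest reads, with 42 in the cWT group, 54 in cKO, 160 in cWT_SOD1 and 62 in cKO_SOD1. It measured 0.666, 0.285, 0.556 and 0.775 CPM in cWT, 0.796, 1.01, 0.333 and 0.683 in cKO, 1.91, 2.63, 2.55 and 2.45 in cWT_SOD1 and 0.644, 0.419, 0.932 and 1.14 in cKO_SOD1. Only the cWT_SOD1 libraries stood apart, and the other 3 groups overlapped. The transgene effect on Ly96 was 2.04 (SE 0.31, adjusted p = 1.59e-05) in cWT, and in cKO it was 0.16 (SE 0.34, adjusted p = 0.833), which did not pass the test. With the transgene Ly96 was lower in cKO than in cWT, at −1.58 (SE 0.29, adjusted p = 0.000161), and the 2 transgene effects differed by −1.88 (SE 0.47, adjusted p = 0.00339). Such a p does not show that the transgene left Ly96 as it was in cKO.

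The receptors of endosomes bind nucleic acids. Tlr7 (mm9 chromosome X, 163742863 to 163768460) binds single-stranded RNA. It measured 5.12, 5.31, 3.39 and 4.71 CPM in cWT, 5.57, 5.62, 7.32 and 4.19 in cKO, 34.9, 79.6, 66.3 and 61.9 in cWT_SOD1 and 12.8, 14.1, 10.3 and 10.8 in cKO_SOD1. Every cKO_SOD1 library lay above the libraries without the transgene, and the lowest cWT_SOD1 library, replicate 1, lay well above the highest cKO_SOD1 library. The transgene effect on Tlr7 was 3.71 (SE 0.23, adjusted p = 4.39e-10) in cWT and 1.08 (SE 0.23, adjusted p = 0.00639) in cKO. The genotype difference with the transgene, −2.34 (SE 0.20, adjusted p = 8.21e-08), was the largest among the 10 genes.

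Tlr13 (mm9 chromosome X, 103338614 to 103355832) binds a sequence of bacterial ribosomal RNA. It measured 4.40, 4.0, 2.78 and 3.66 CPM in cWT, 4.30, 3.87, 4.60 and 3.36 in cKO, 29.5, 54.4, 46.7 and 41.0 in cWT_SOD1 and 10.4, 10.2, 8.76 and 8.11 in cKO_SOD1. The order of its 4 cWT_SOD1 libraries was that of Tlr7, and the groups with and without the transgene did not overlap in either genotype. The transgene effect on Tlr13 was 3.53 (SE 0.18, adjusted p = 4.73e-11) in cWT and 1.22 (SE 0.18, adjusted p = 0.000417) in cKO, and the genotypes differed by −2.2 (SE 0.16, adjusted p = 1.56e-08) with the transgene.

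Tlr9 (mm9 chromosome 9, 106124929 to 106129207) binds unmethylated CpG DNA. It measured 2.46, 1.48, 2.67 and 2.27 CPM in cWT, 2.12, 1.8, 2.55 and 2.88 in cKO, 7.07, 15.4, 14.6 and 10.4 in cWT_SOD1 and 4.16, 4.61, 4.15 and 5.07 in cKO_SOD1. Its 4 cKO_SOD1 libraries lay within 1 CPM of each other, above both groups without the transgene and below the lowest cWT_SOD1 library. The transgene effect on Tlr9 was 2.42 (SE 0.23, adjusted p = 6.28e-08) in cWT and 0.94 (SE 0.24, adjusted p = 0.0210) in cKO, and the genotype difference with the transgene was −1.40 (SE 0.21, adjusted p = 1.92e-05).

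Tlr3 (mm9 chromosome 8, 46481019 to 46495893) binds double-stranded RNA. It measured 33.8, 30.4, 36.8 and 30.7 CPM in cWT, 31.3, 29.7, 27.4 and 29.9 in cKO, 67.2, 55.7, 68.2 and 59.7 in cWT_SOD1 and 36.3, 36.7, 47.2 and 32.5 in cKO_SOD1. The cWT_SOD1 libraries lay above all others, while the cKO_SOD1 libraries lay above the cKO group but overlapped the cWT group. Tlr3 had the smallest transgene effect of the 10 in cWT, 0.93 (SE 0.10, adjusted p = 2.60e-07). In cKO the effect was 0.37 (SE 0.10, adjusted p = 0.0318), and the genotype difference with the transgene was −0.71 (SE 0.10, adjusted p = 7.81e-06).

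Myd88 (mm9 chromosome 9, 119245106 to 119249158) is the adaptor shared by all the receptors here except Tlr3. It measured 7.37, 7.82, 7.44 and 6.81 CPM in cWT, 6.0, 5.94, 7.15 and 7.51 in cKO, 14.3, 18.7, 17.0 and 14.7 in cWT_SOD1 and 8.31, 8.75, 9.04 and 8.75 in cKO_SOD1. The cWT_SOD1 libraries were again the highest, and all 4 cKO_SOD1 libraries lay narrowly above the 8 libraries without the transgene. The transgene effect on Myd88 was 1.14 (SE 0.10, adjusted p = 2.46e-08) in cWT and 0.39 (SE 0.10, adjusted p = 0.0267) in cKO, and the genotypes differed by −0.89 (SE 0.10, adjusted p = 7.09e-07) with the transgene.

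The calls for the transgene effect in cKO depended on single libraries. Without replicate 1 or replicate 2 of cKO the number of genes called was 4, and without replicate 2 of cKO_SOD1 it was 5. The 5 genes lost in at least 1 such fit were Tlr1 (in 6 fits, highest adjusted p = 0.108), Tlr3 (in 6, 0.114), Myd88 (in 5, 0.10), Tlr9 (in 4, 0.0803) and Cd14 (in 3, 0.0637). On the deposited FPKM values Tlr3 also missed the threshold, at adjusted p from 0.0520 to 0.0752 by limma, and Tlr1 did with the larger pseudocount, at 0.0721. In all fits of these 5 genes the log2 fold change stayed positive.

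Between cKO and cWT without the transgene the edgeR test called 0 of the 10, with 0 at an unadjusted p under 0.05, the lowest being 0.142 for Tlr3. DESeq2, limma-voom and limma on FPKM also called 0. The log2 fold changes ran from −0.16 for Tlr3 to 0.43 for Tlr1, with SEs from 0.10 (Tlr3) to 0.38 (Tlr1), and in every gene the 2 groups overlapped. These p-values do not show that the levels were equal.

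The difference of the 2 transgene effects was itself tested as an interaction, which passed for all 10 genes and was negative in each. It was −2.64 (SE 0.46, adjusted p = 0.000183) for Tlr1, −2.63 (SE 0.32, adjusted p = 1.15e-05) for Tlr7 and −2.31 (SE 0.26, adjusted p = 5.45e-06) for Tlr13. At the other end it was −0.56 (SE 0.14, adjusted p = 0.00364) for Tlr3 and −0.75 (SE 0.14, adjusted p = 0.000417) for Myd88. The transgene thus raised Tlr7 13.1-fold in cWT and 2.11-fold in cKO, and Myd88 2.2-fold and 1.31-fold.

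Per length, the order of the genes changed with the transgene. In cWT, Tlr3 was first at 7.70 ± 0.726 FPKM (mean ± SD, n = 4), followed by Myd88 at 4.16 ± 0.315, Cd14 at 3.16 ± 0.390 and Tlr2 at 1.79 ± 0.0657. The ranges of Tlr2 and Ly96 overlapped there, as did those of Ly96, Tlr7 and Tlr13. In cWT_SOD1, Cd14 stood at 29.2 ± 10.5, Tlr2 at 21.1 ± 4.56, Tlr7 at 16.7 ± 4.90, Tlr3 at 15.1 ± 1.59 and Tlr13 at 11.2 ± 2.63 FPKM, and the ranges of Cd14, Tlr2, Tlr7 and Tlr3 overlapped between neighbours. In cKO_SOD1, Tlr3 was again first at 9.12 ± 1.65 FPKM, with Cd14 at 7.46 ± 1.21 and an overlapping range. Tlr4 was in place 9 in the other 3 groups and in place 10 in cWT_SOD1, at 3.22 ± 0.562 FPKM there.

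Within cWT_SOD1 the libraries were not alike. Replicate 1 was the lowest of its group for 7 of the 10 genes (Tlr4, Tlr7, Tlr9, Tlr13, Cd14, Ly96 and Myd88), and replicates 2 and 3 were the highest for 5 genes each. Replicate 1 also had the lowest mean of the microglial markers in its group, 6.46 in log2 CPM against 6.65 to 6.86 in the other 3, and the highest summed neuronal markers, 3901 CPM against 2285 to 3389. The part of these cell mixtures in the spread was not tested. Leaving that library out kept all 10 calls in the comparisons with cWT and with cKO_SOD1.

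Over the 16 libraries, log2 levels of the 10 genes correlated with each other at r from 0.80 to 0.996 over 45 pairs. The 16 points are 4 groups of 4, and most of this is the difference between groups. After subtraction of group means, r ran from −0.50 (Tlr3 and Tlr7) to 0.948 (Tlr7 and Tlr13), with a median of 0.323, and was negative for 10 of the 45 pairs. Tlr7 and Tlr13 were thus the pair whose levels varied most closely together from animal to animal within groups. Of 14369 genes compared, the 3 whose pattern over the 16 libraries was most like Tlr1 were Ptprc, Fcgr1 and Fcer1g, those most like Tlr4 were Clic1, Dock2 and Lair1, and those most like Tlr13 were Grn, Apobec1 and Ctsz, all at r of at least 0.986. For Tlr2 they were Slc39a1, Thbs2 and Cd44, for Tlr7 Ampd3, Mt2 and Mylk, and for Tlr9 Capg, Emp3 and AI607873. For Cd14 they were Inpp5d, Irf8 and Hmha1, for Myd88 Rela, Oaf and Tapbp, and for Tlr3 Tgfb2, Ifit2 and Cd274. The best likeness was lowest for Ly96, at r = 0.954 with Rps3a, followed by Smurf2 and Ormdl1. These correlations describe libraries that share their groups and depth, and are no test.

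Markers of microglia moved in the same directions. All 12 homeostatic markers on the list (P2ry12, Tmem119 and Cx3cr1 among them) were called higher with the transgene in cWT. In cKO 10 of the 12 were called higher, and with the transgene 11 of the 12 were lower in cKO than in cWT. Their summed level lay at 428 to 467 CPM in cWT, 415 to 552 in cKO, 1794 to 2631 in cWT_SOD1 and 749 to 822 in cKO_SOD1. The mean of their log2 CPM was 2.10 higher with the transgene in cWT (4.30-fold), 0.76 higher in cKO (1.70-fold), and −1.28 in cKO against cWT with the transgene (2.42-fold lower). The part of microglial RNA in the changes of the 10 genes was not tested.

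Set against that marker mean in the same library, the genes differed from each other. With the transgene in cWT, Tlr7 stood 1.54 higher relative to the markers on the log2 scale, Tlr1 1.51, Tlr13 1.37 and Tlr2 1.36, each without overlap between the groups. Tlr3 and Myd88 went the other way, at −1.18 and −0.98, also without overlap. Cd14 at 0.93, Tlr4 at 0.30, Tlr9 at 0.23 and Ly96 at −0.18 had overlapping groups. In cKO the transgene left Tlr2 at 0.52 and Tlr13 at 0.43 above, and Myd88 at −0.37 below, without overlap. The other 7 overlapped.

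Between the genotypes with the transgene, Tlr7 differed by −1.0 relative to the markers, Tlr2 by −0.97, Tlr13 by −0.88, Tlr1 by −0.88 and Tlr4 by −0.28, all lower in cKO without overlap. Myd88 was 0.40 higher there without overlap, and Tlr3, Tlr9, Cd14 and Ly96 overlapped. Without the transgene all 10 overlapped. With only Aif1, Csf1r and Itgam as the reference, the differences of Tlr1, Tlr2, Tlr7 and Tlr13 shrank but kept their sign. Those of Tlr3 and Myd88 grew, to −1.68 and −1.49 in cWT and to 0.90 and 0.75 between the genotypes with the transgene. The signs of Tlr4 and Tlr9 turned in both comparisons, and that of Ly96 turned between the genotypes. Tlr4 then stood at −0.21 in cWT and 0.072 between genotypes, and Tlr9 at −0.28 and 0.30. These relative levels are descriptions with no test, since the reference genes themselves rose unequally, by 1.52-fold for P2ry12 and 4.98-fold for Cx3cr1 in cWT.

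**Figure D3:**
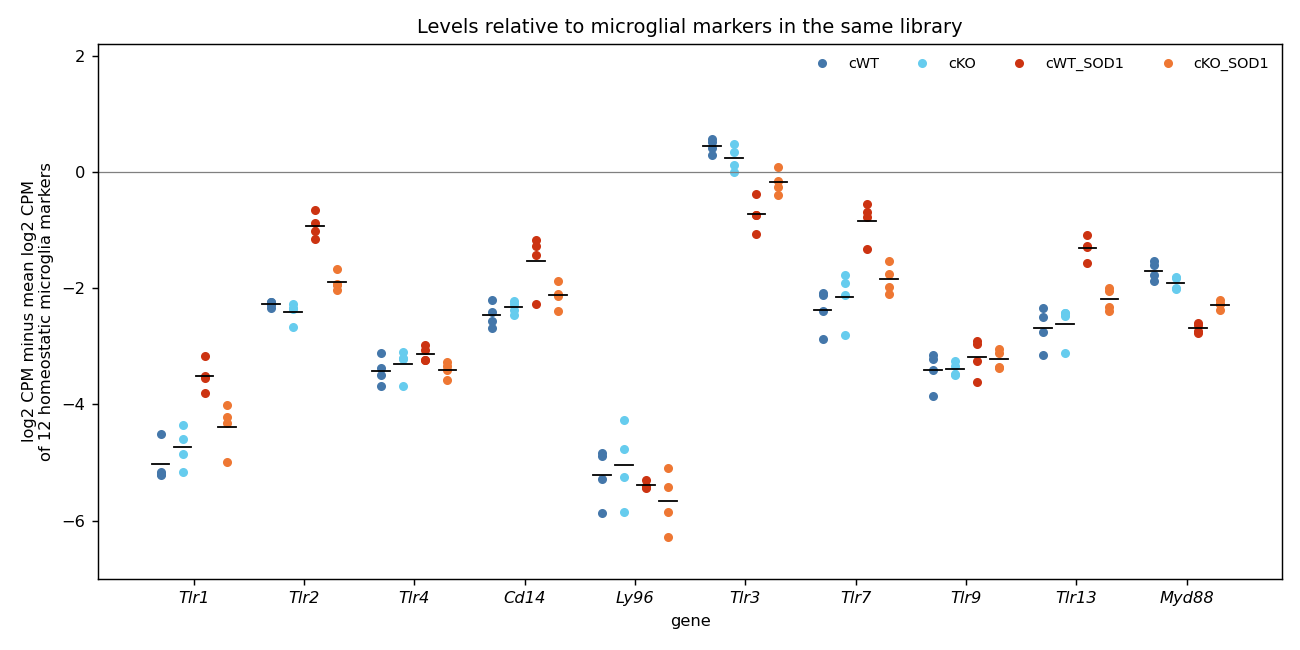
Level of each gene relative to microglial markers: log2 CPM minus the mean log2 CPM of 12 homeostatic microglia markers in the same library. Points are libraries, lines are means of 4, and 0 is the marker mean. Tlr1, Tlr2, Tlr7 and Tlr13 lie highest in cWT_SOD1, and Tlr3 and Myd88 lie lowest there.

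Other cell types that can carry these receptors were read from their markers. Of 9 markers of border and monocyte-derived macrophages (Mrc1, Cd163 and Lyve1 among them) 7 were tested, and 4 were called higher with the transgene in cWT, none in cKO, and 4 lower in cKO than in cWT with it. Ccr2 and Clec10a, 2 of the 7, reached the minimum for a test only with the cWT_SOD1 libraries. The summed level of the 9 was 17.2 to 25.5 CPM in cWT, 18.7 to 25.1 in cKO, 31.3 to 60.2 in cWT_SOD1 and 19.8 to 30.1 in cKO_SOD1. Of 8 neutrophil markers with a row 3 were tested and none of these passed the test in any comparison, with sums of 0.389 to 6.26, 0.849 to 6.19, 2.35 to 13 and 0.890 to 6.27 CPM. Of 5 T cell markers only Cd4 reached the minimum for a test, and it did so through the cWT_SOD1 libraries alone, so its being called higher there than in cWT and cKO_SOD1 was set by that choice. The 5 had sums of 0.166 to 0.571, 0.159 to 0.536, 1.97 to 3.02 and 0.234 to 0.606 CPM, and with Cd8a at 0 in all cWT libraries. Of 5 B cell markers only Cd79b was tested, which also needed the cWT_SOD1 libraries to reach the minimum, and the sums were up to 7.99 CPM in a library. Astrocyte markers summed to 5196 to 5984 CPM in cWT, 5098 to 5814 in cKO, 17041 to 20751 in cWT_SOD1 and 8685 to 9365 in cKO_SOD1, and neuronal markers to 8552 to 8998, 7957 to 8337, 2285 to 3901 and 5485 to 5975 CPM. Both sums were carried by some of their members. Of 7 astrocyte markers 5 were called higher with the transgene in cWT, with Gfap moving from 1429 ± 127 to 12834 ± 1258 CPM (mean ± SD, n = 4), while S100b was lower (log2 fold change −0.50, SE 0.079, adjusted p = 2.75e-05) and Aldoc was not called (log2 fold change 0.0021, SE 0.068, adjusted p = 0.981). With the transgene 5 of the 7 were lower in cKO than in cWT, and S100b was higher. All 6 neuronal markers were lower with the transgene in cWT, and with it 5 of the 6 were higher in cKO than in cWT. Chat, which marks motor neurons, was the other one, at 14.7 ± 2.90 CPM in cWT_SOD1 and 14.0 ± 1.72 CPM in cKO_SOD1. S100b, Aldoc and Chat were picked out after their values were seen, and the part of any of these cells in the result was not tested.

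Of the other Toll-like receptors of the mouse, 4 of 5 were tested, and 3 were called higher with the transgene in cWT, none in cKO, and all 4 lower in cKO than in cWT with it. Tlr8 is among both counts, but it reached the minimum for a test (0.544 CPM in 4 libraries) only in cWT_SOD1, so its call there was set by that choice. Tlr6, which pairs with Tlr2, rose 7.63-fold with the transgene in cWT (log2 fold change 2.93, SE 0.27, adjusted p = 5.65e-08) and was lower in cKO with the transgene (log2 fold change −2.14, SE 0.25, adjusted p = 1.41e-06). Tlr8, a relative of Tlr7, had 14 reads over the 4 cWT libraries, 19 in cKO, 209 in cWT_SOD1 and 27 in cKO_SOD1. Tlr12 rose 2.75-fold (log2 fold change 1.46, SE 0.35, adjusted p = 0.00140). Tlr5, the flagellin receptor, was not called in cWT (log2 fold change −0.40, SE 0.19, adjusted p = 0.0746), was lower with the transgene in cKO (log2 fold change −0.82, SE 0.20, adjusted p = 0.0160), and was lower in cKO than in cWT with it (log2 fold change −0.50, SE 0.21, adjusted p = 0.0480). Tlr11 had between 0 and 3 reads per group and was not tested.

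Around the receptors, 67 other genes of the pathway were listed by role and 59 were tested, of which Tlr8 and Ccl2 needed the cWT_SOD1 libraries to reach the minimum. Calls of Tlr8 and Ccl2 in the counts below that involve cWT_SOD1 were set by that choice. All 10 of the genes described reached the minimum without those libraries. With the transgene in cWT 45 of the 59 were called higher and 6 lower, in cKO 14 and 2. Without the transgene edgeR called none between genotypes, with 4 of the 59 (Cd36, Irak4, Tnc and Tab2) at an unadjusted p under 0.05. Over all 15426 genes, 543 had such an unadjusted p in that comparison. Cd36 (log2 fold change 1.16, SE 0.47, adjusted p = 0.9995) and Irak4 (log2 fold change 0.35, SE 0.16, adjusted p = 0.9995) were among these 4, and were picked out after their values were seen. With the transgene 42 were lower in cKO than in cWT and 3 higher, and the interaction was negative for 36 and positive for 3. The median log2 fold change in cWT was 1.0, below the 2.81 of the 10 genes. By list, it was 3.72 for co-receptors and ligand binding and 3.58 for target genes, both above 2.81. For every other list it was below 2.81. The 8 genes with too few reads to test were Tlr11, Il1b, Tnf, Il6, Il10, Il12b, Ifnb1 and Irg1.

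Genes that bind ligand beside the receptors moved with them. Ly86 and Cd180, which form a complex related to Ly96 and Tlr4, rose 10.2-fold and 18-fold in cWT (adjusted p = 7.21e-11 and 8.37e-11), and in cKO 2.24-fold and 4.02-fold. Cd36, a scavenger receptor that works with Tlr2, and Lbp, the lipopolysaccharide-binding protein, also rose in cWT, so that all 4 of this list were higher there, 2 of 4 in cKO, and all 4 lower in cKO than in cWT with the transgene. Of 7 endogenous ligands 4 were called higher in cWT, with Tnc (tenascin C) at 2.38 (SE 0.15, adjusted p = 6.94e-10) and Vcan (versican) at 1.26 (SE 0.12, adjusted p = 5.42e-08), followed by Hmgb1 and Bgn, and 1, Hspd1, was lower. S100a8 and S100a9 were not called. Of the 4 genes for folding and endosomal delivery, all 4 were higher in cWT, and Unc93b1, which carries the nucleic acid receptors to endosomes, rose 5.98-fold (log2 fold change 2.58, SE 0.14, adjusted p = 1.04e-10). The chaperones Hsp90b1 and Cnpy3, which fold the receptors, rose less, with Hsp90b1 at 0.32 (SE 0.073, adjusted p = 0.000961) and Cnpy3 at 0.16 (SE 0.045, adjusted p = 0.00408), while Slc15a4, an endolysosomal transporter, was at 0.49 (SE 0.10, adjusted p = 0.000223).

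The signalling genes were mixed. Of 18 adaptors and kinases 12 were called higher in cWT and 4 lower, with a median log2 fold change of 0.35. Ticam2, which links Tlr4 to Ticam1, rose 11.6-fold (log2 fold change 3.54, SE 0.24, adjusted p = 1.41e-09), and Irak4, the kinase that Myd88 recruits, 4.29-fold (log2 fold change 2.10, SE 0.15, adjusted p = 1.77e-09). Sarm1, a TIR protein best known for its role in axon degeneration, fell by 0.93 on the log2 scale (SE 0.087, adjusted p = 5.48e-08), and Traf3 fell by 0.73 (SE 0.066, adjusted p = 3.90e-08). With the transgene 9 of the 18 were lower in cKO than in cWT and 3 were higher, with Ticam2 at −2.02, Irak4 at −1.30, Traf3 at 0.59 and Sarm1 at 0.51. Sarm1 and Traf3 thus had the opposite sign to the 10 genes in both comparisons. The neuronal markers other than Chat were on average lowest in cWT_SOD1, and the part of neurons in this was not tested. Of 5 negative regulators 3 were higher in cWT and 1, Tollip, was lower, with Tnfaip3 (A20) at 2.13 (SE 0.20, adjusted p = 6.54e-08), Irak3 at 1.01 and Nfkbia at 0.87.

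The 8 transcription factors of the pathway were all called higher in cWT, 4 of 8 in cKO, and 7 of 8 were lower in cKO than in cWT with the transgene. Irf5, which acts below Myd88, was at 2.56 (SE 0.18, adjusted p = 2.51e-09) in cWT, and the NF-kappa-B subunits Nfkb2, Rela and Nfkb1 were at 1.67, 0.81 and 0.56. Of 16 target genes 9 were tested, and 7 were called higher in cWT, 4 in cKO, and 7 lower in cKO than in cWT with the transgene. Their medians were 3.58, 1.55 and −1.55. Ccl2 is among both counts of 7, but it reached the minimum for a test only with the cWT_SOD1 libraries. Those calls of Ccl2 were set by that choice, and the median of 3.58 is its own value. The chemokines Cxcl10, Ccl5 and Ccl3 stood at 0.230 ± 0.140, 0.0939 ± 0.0799 and 0.354 ± 0.350 CPM in cWT (mean ± SD, n = 4) and at 12.6 ± 3.55, 3.72 ± 0.869 and 12.5 ± 2.16 CPM in cWT_SOD1. In cKO_SOD1 they stood at 4.27 ± 1.28, 0.754 ± 0.156 and 4.22 ± 0.585 CPM. Icam1, an adhesion molecule, was −1.95 and Nfkbiz, a nuclear regulator of NF-kappa-B, −1.0 in cKO against cWT with the transgene. Among the genes not tested, Il1b had 3 reads in the cWT group, 9 in cKO, 59 in cWT_SOD1 and 28 in cKO_SOD1, and Tnf had 8, 6, 55 and 15. Both were picked out after their values were seen.

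**Figure D4:**
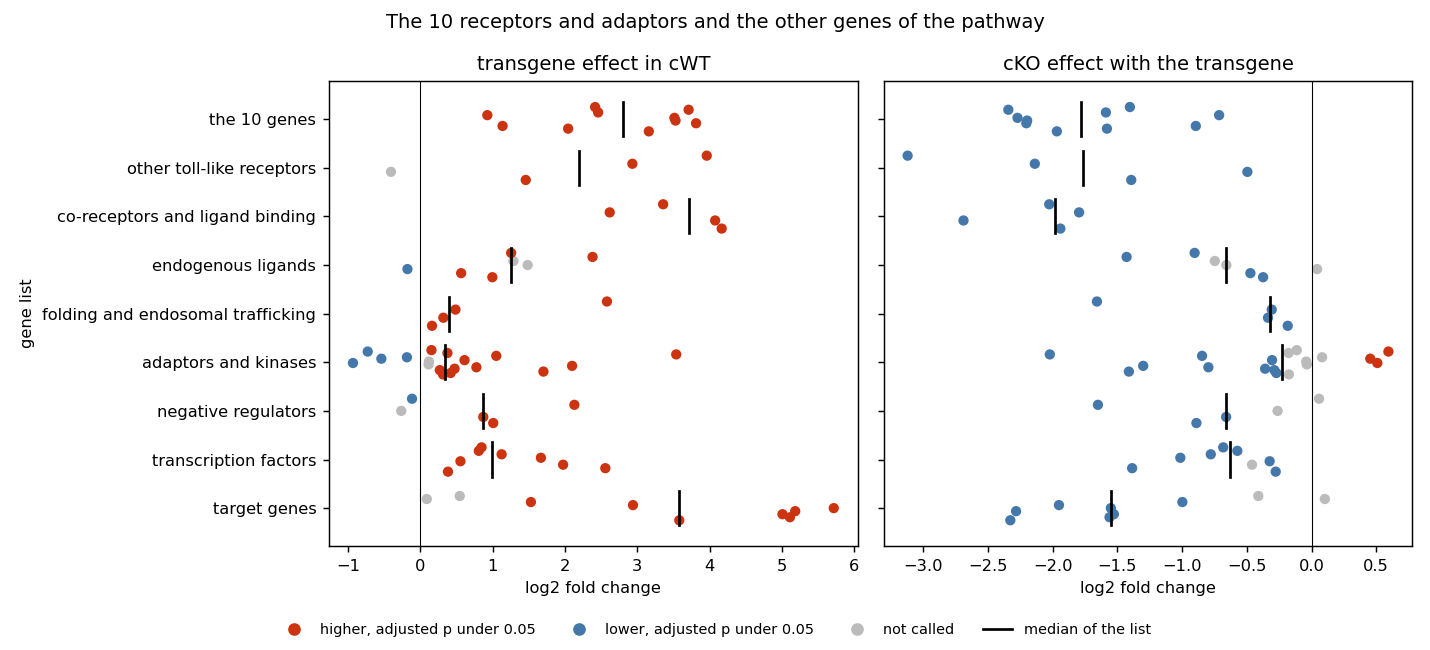
Log2 fold changes of the 10 genes and of the tested genes of 8 pathway lists, for the transgene effect in cWT (left) and for cKO against cWT with the transgene (right). Each point is a gene, red where called higher, blue where called lower and grey where not called, and black lines are list medians. All 10 genes lie to the right of 0 on the left and to the left of 0 on the right, and adaptors and kinases lie on both sides.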

How the data were processed

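Poly-A RNA of lumbar spinal cords was sequenced from TruSeq libraries, per the labels' protocols. For 23284 gene symbols the authors deposited raw read counts of every library, and FPKM values both in a joint table and library by library, with identical values in all 23699 entries. The submitters' processing notes name bcl2fastq 1.8.4, TopHat2 2.0.4, Cufflinks 2.0.2 and mm9. Which program counted reads, and whether by strand, is not given in the sources used here, and reads of overlapping or antisense genes cannot be told apart. Spans of genes come from the deposited FPKM tables (mm9), and promoters from RefSeq (GRCm38.p6), which was used for sequence alone.

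The count test was edgeR 4.0.16 (glmQLFit and glmQLFTest, R 4.3.3) after TMM scaling and filterByExpr, which kept 15426 genes, in 1 fit of the 16 libraries with a coefficient per group. Of the 5 comparisons 2 were of the transgene (1 per genotype), 2 of the genotype (1 per transgene status) and 1 was the interaction, each adjusted by Benjamini-Hochberg over all genes and called at 0.05. SEs are approximate, from the fold change and its F (absolute log2 value over root F). The procedure was tested on simulated counts. No 2 libraries of a group agreed within counting noise (their mean chi-square lay between 2.79 and 38.9), so none was treated as deposited again. Xist and Y-linked counts split every group into 2 males and 2 females.

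Alternatives were RLE and upper-quartile factors, no filter, only the 2 groups compared, a term for sex and a block for replicate number. Others were DESeq2 1.42.0, limma-voom with group weights (limma 3.58.1) and each library left out. On FPKM, limma was run on log2(FPKM + 0.1) with and without a filter (FPKM of at least 0.5 in 4 libraries). On log2(FPKM + 1) it was run with that filter only. Relative levels are log2 CPM (prior count 2) minus the mean of 12 microglial markers. The text names all 10 genes, the other Toll-like receptors, up to 4 genes of each other pathway list with the smallest p for the transgene in cWT and up to 2 with the smallest p for cKO with the transgene, the first 3 of each marker list and the 3 genes most like each of the 10. The other genes counted by list are named where the count needs it, and 1 marker under this rule is not reported here. The 10 genes, the lists and this rule were chosen with earlier results of these data known.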

Additional observations from a re-analysis of the deposited data

Results flagged for a closer look

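Each of the 10 genes is listed here because the effect of the transgene differed between the genotypes by a test of the difference itself, the interaction term of the edgeR fit. The interaction (log2) was −2.64 for Tlr1, −2.2 for Tlr2, −0.56 for Tlr3, −1.77 for Tlr4, −2.63 for Tlr7, −1.48 for Tlr9, −2.31 for Tlr13, −2.17 for Cd14, −1.88 for Ly96 and −0.75 for Myd88. The largest adjusted p was 0.00364 (Tlr3), followed by 0.00339 (Ly96). In all 10 the effect in cKO was the smaller one. No library was marked as outlying within its group in the 40 sets of 4 values (10 genes in 4 groups), where chance marks about 1 in 20.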

How the results depend on the processing

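In 4 of the 5 comparisons every call on the 10 genes was the same under each alternative that could be fitted, leaving out each library included. These were the transgene effect in cWT, the genotype difference with and without the transgene, and the interaction. The fit of only 2 groups gives no interaction. For the transgene effect in cKO, 8 genes were called on log2(FPKM + 0.1) with or without the filter and 7 on log2(FPKM + 1), against 9, and leaving out 1 library gave 4 to 8. The number of all genes called there was 1123 (740 higher and 383 lower), 2480 (1235 and 1245) with only the 2 groups, 2264 (1217 and 1047) by limma-voom, and 685 to 991 with 1 library left out, the lowest without replicate 2 of cKO. Calls on FPKM were split 913 higher to 199 lower with a pseudocount of 0.1 (792 to 177 without the filter) and 803 to 207 with a pseudocount of 1. For the genotype without the transgene 4 genes in all were called, 9 with only the 2 groups, 18 by DESeq2, 10 by limma-voom, and 2 to 6 with 1 library left out, the lowest without replicate 2 of cKO.

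Signs of the log2 fold changes turned only for values that were not called, with 1 library left out. For the genotype without the transgene Tlr9 ran from −0.073 to 0.18 and Tlr13 from −0.00028 to 0.21, and for the transgene in cKO Ly96 ran from −0.072 to 0.38. Relative levels were also taken on FPKM and with Aif1, Csf1r and Itgam as the microglial reference, in equal number and 80 in all. Of these, 16 moved by more than the spread between replicates and 1 more reversed, all with that reference and none on FPKM. A turned sign was counted as reversed only where the move passed that spread and the groups had not overlapped before. The turned signs of Tlr4 in cWT and of Tlr9 in both comparisons are among the 16. That of Ly96 stayed within the spread. The reversed one was the relative level of Tlr4 between genotypes with the transgene, which turned from −0.28 to 0.072. The cause was not tested. With a replicate block 10, 9, 0, 10 and 10 of the 10 genes were called in the 5 comparisons, and 10204, 1158, 4, 9018 and 6936 of all genes, so the block changed no call on the 10. Same-numbered libraries deviated together (r over 0.1) in 11 of 24 pairs, from −0.25 to 0.31, and 6 of 16 libraries correlated best with their own number, so the numbers were not taken as pairs.

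Ly96 and Tlr1 had the fewest reads, 42 and 48 over the cWT group, and low counts left Il1b and Tnf untested. The edgeR p-values use a spread between animals estimated over all 16 libraries, with information shared between genes. They do not measure the spread of the 4 animals of a single group. The groups differed in spread, with mean chi-square between libraries of 6.67 to 38.9 in cWT_SOD1 and 3.41 to 8.72 in cKO_SOD1.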

Other observations

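Tlr7 and Tlr13 lie on the X chromosome, and every group held 2 males and 2 females. In cWT both males stood above both females for Tlr7, at 5.12 and 5.31 CPM against 3.39 and 4.71 CPM. The same held in cKO, at 5.62 and 7.32 CPM against 4.19 and 5.57 CPM, and in cKO_SOD1, at 12.8 and 14.1 CPM against 10.3 and 10.8 CPM. In cWT_SOD1 the males, at 34.9 and 66.3 CPM, overlapped the females, at 61.9 and 79.6 CPM. Tlr13 was higher in both males than in both females in cWT (4.0 and 4.40 CPM against 2.78 and 3.66 CPM) and in cKO_SOD1 (10.2 and 10.4 CPM against 8.11 and 8.76 CPM), and the sexes overlapped in the other 2 groups. Tlr8, also on the X chromosome, overlapped between the sexes in all 4 groups. The difference between the sexes was not tested. A term for sex in the fit changed no call on the 10 genes.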
